A study of Mus musculus with 4 samples.

Results

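The genes examined here encode 10 WNT ligands of the mouse: Wnt2, Wnt3a, Wnt4, Wnt5a, Wnt5b, Wnt6, Wnt7a, Wnt7b, Wnt10a and Wnt11. They are 10 of the 19 WNT ligand genes among the 56748 genes of the deposited count table. They were chosen by name with their counts in these same 4 samples already known, so their differences between the groups are given as a description and not as a test. WNT ligands are secreted glycoproteins that receive a lipid in the endoplasmic reticulum from the acyltransferase Porcn and are carried to the cell surface by Wls. Outside the cell they bind Frizzled receptors, and with the co-receptors Lrp5 and Lrp6 this stabilizes β-catenin, whereas binding with Ror or Ryk receptors acts on cell polarity and movement without β-catenin. In the lung, the ligands guide the outgrowth of the epithelium and its exchange with the mesenchyme, and in the mammary gland they guide ductal branching and stem cell upkeep.

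RNA was sequenced from lungs with metastases of 4T1-FLuc, a luciferase-expressing line of mouse triple-negative breast cancer (TNBC), 1 line grown in 1 host strain. The hosts were female BALB/cJ mice, 7 weeks old when the tumor cells entered through the tail vein, and neither group carried a genetic change in the host. The saline group (2 samples) had vehicle alone. The ADC/cmLumiOpto group (2 samples) had an antibody-drug conjugate, an anti-CD276 antibody linked to the microtubule inhibitor mertansine, together with cmLumiOpto, an exosome-borne viral vector for a light-gated channel that depolarizes mitochondria once its luminescent substrate ViviRen is given. The methods of the study give 8 mg/kg of the conjugate and dissociated lung tissue, while the sample labels give 16 mg/kg with the abbreviation Olap, a PBS control, and tumor cells harvested from the lung after 3 weeks. The methods also give 4 samples per group, of which 2 per group were analyzed here. The labels number the samples within a group and do not say that each came from its own mouse. The p-values below weigh the group difference against a spread between samples, estimated with help from all tested genes. That spread need not be the one between mice. The samples held 15263375 to 19675436 counts each. At that depth a floor of 3 counts, which covers counting error only, equals 0.146 to 0.202 CPM (counts scaled to the library size by TMM).

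Markers of lung cells were present in all 4 samples, which goes against a label of tumor cells alone. The summed level of 6 genes of alveolar type 2 cells was 1600 and 419 CPM in the saline samples and 5551 and 4677 CPM in the treated samples, and that of 4 airway genes was 1149, 80.2, 6195 and 2951 CPM in the same order. The summed level of 8 fibroblast and mesenchyme genes was 5153 and 3512 CPM in the saline samples and 1789 and 1501 CPM in the treated samples. Keratins and other carcinoma epithelium genes, shared with lung epithelium, summed to 3001, 3353, 2955 and 2873 CPM, the narrowest spread of the lists named here. By fitted value, 4 of these genes were lower and 3 higher in the treated group. The summed level of 7 leukocyte genes was 2562 and 1517 CPM in the saline group and 5156 and 5963 CPM in the treated group, and that of 6 alveolar type 1 genes was 286, 117, 740 and 733 CPM. Smooth muscle and pericyte genes summed to 231, 252, 165 and 144 CPM, although 3 of them were lower and 3 higher by fitted value. Endothelial genes summed to 427, 343, 418 and 628 CPM. None of the 49 markers on the 8 lists was at 0 in any sample. Saline replicate 2 stood apart from saline replicate 1 by its lower lung epithelial markers. In bulk RNA, fewer cells of a type and less RNA per cell cannot be told apart, and the part of the cell make-up in the WNT values below was not tested.

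The DNA around the start of the genes is shown for 3 of them, because these windows belong to the ligands whose levels lay farthest apart between the groups. RefSeq windows of 250 bases before and 50 bases after the start (GRCm38.p6) were found for 7 of the 10 genes, as 10 windows. No window was matched for Wnt5a, Wnt7b and Wnt10a. The windows are written 5′ to 3′ on the strand of the gene, and the capitals mark GC boxes, the sequence GGGCGG or its reverse complement CCGCCC, which the Sp family of transcription factors binds. Wnt4 is shown at chr4:137277385-137277684 on the plus strand, Wnt3a at chr11:59290702-59291001 on the minus strand and Wnt6 at chr1:74771642-74771941 on the plus strand.
Wnt4: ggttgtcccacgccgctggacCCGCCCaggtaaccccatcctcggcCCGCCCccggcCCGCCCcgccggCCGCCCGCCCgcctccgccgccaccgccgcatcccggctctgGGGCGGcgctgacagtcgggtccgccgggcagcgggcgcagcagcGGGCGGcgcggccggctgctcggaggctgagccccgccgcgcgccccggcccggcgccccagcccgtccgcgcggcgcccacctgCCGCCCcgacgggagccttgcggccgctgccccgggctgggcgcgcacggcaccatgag
Wnt3a: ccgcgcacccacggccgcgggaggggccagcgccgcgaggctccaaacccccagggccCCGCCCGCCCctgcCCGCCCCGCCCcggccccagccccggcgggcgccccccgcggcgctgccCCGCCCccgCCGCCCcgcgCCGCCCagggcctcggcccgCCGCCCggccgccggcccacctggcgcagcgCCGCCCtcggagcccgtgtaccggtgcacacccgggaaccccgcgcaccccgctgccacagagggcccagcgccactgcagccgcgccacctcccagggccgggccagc
Wnt6: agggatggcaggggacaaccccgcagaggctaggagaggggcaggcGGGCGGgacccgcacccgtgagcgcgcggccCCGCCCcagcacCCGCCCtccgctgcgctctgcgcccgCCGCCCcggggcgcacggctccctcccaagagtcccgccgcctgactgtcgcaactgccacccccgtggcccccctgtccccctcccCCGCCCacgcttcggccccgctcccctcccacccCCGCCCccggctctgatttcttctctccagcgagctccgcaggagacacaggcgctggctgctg

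The 3 windows are rich in G and C, at 84.3% for Wnt4, 86.3% for Wnt3a and 76.7% for Wnt6, against a median of 52.7% over the 32851 windows of the table. Overlapping matches on both strands counted, Wnt4 holds 8 GC boxes, Wnt3a holds 9 and Wnt6 holds 6, and 1.35% of all windows hold at least 6. Of the 10 windows of the WNT ligand genes, 9 hold at least 1 GC box, against 35.7% of all windows. The core of the site bound by the TCF and LEF proteins, the partners of β-catenin, was searched as CTTTGA or CTTTGT on both strands. It occurs in 2 of the 10 windows, 1 of Wnt5b and 1 of Wnt11, against 31.2% of all windows. The TATAAA box occurs in 1 window, of Wnt11, against 13.6% of all windows. A GC-rich start was also found in ligands whose groups overlapped. Wnt7a has 76.0% GC and 6 GC boxes, and 1 window of Wnt5b has 78.0% GC and 3 boxes. The remaining 5 windows, of Wnt2, Wnt5b and Wnt11, hold 53.0% to 71.3% GC and 0 to 4 boxes.

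The levels of the ligands were set in order per kb of gene length, the scale on which different genes can be compared. Wnt7b, a ligand of the developing lung epithelium, led in both groups, with mean levels of 87.3 CPM per kb in the saline group and 52.2 CPM per kb in the treated group. Wnt10a, a ligand of skin, hair and teeth, came next in both groups, at 13.1 and 20.7 CPM per kb. Wnt4, which acts in mammary side branching downstream of progesterone, was at 11.0 CPM per kb in the saline group, where its samples overlapped those of Wnt10a, and at 2.55 CPM per kb in the treated group. In the saline group the order went on with Wnt9a (3.83 CPM per kb), Wnt2 (2.19), Wnt5a (1.76), Wnt11 (1.59), Wnt10b (1.17), Wnt7a (0.920), Wnt5b (0.631), Wnt2b (0.329), Wnt6 (0.167) and Wnt3a (0.0453). Neighbors in this order did not overlap between Wnt7b and Wnt10a, Wnt4 and Wnt9a, Wnt9a and Wnt2, and Wnt5b and Wnt2b, and every other pair of neighbors overlapped. In the treated group Wnt4 came after Wnt9a (3.0 CPM per kb), with overlapping samples, and Wnt6 (0.561) and Wnt3a (0.395) stood beside Wnt5b (0.535), which both overlapped. The ratio of the mean level of Wnt7b to that of Wnt10a, per kb, was 6.65 in the saline group and 2.52 in the treated group.

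**Figure D1:**
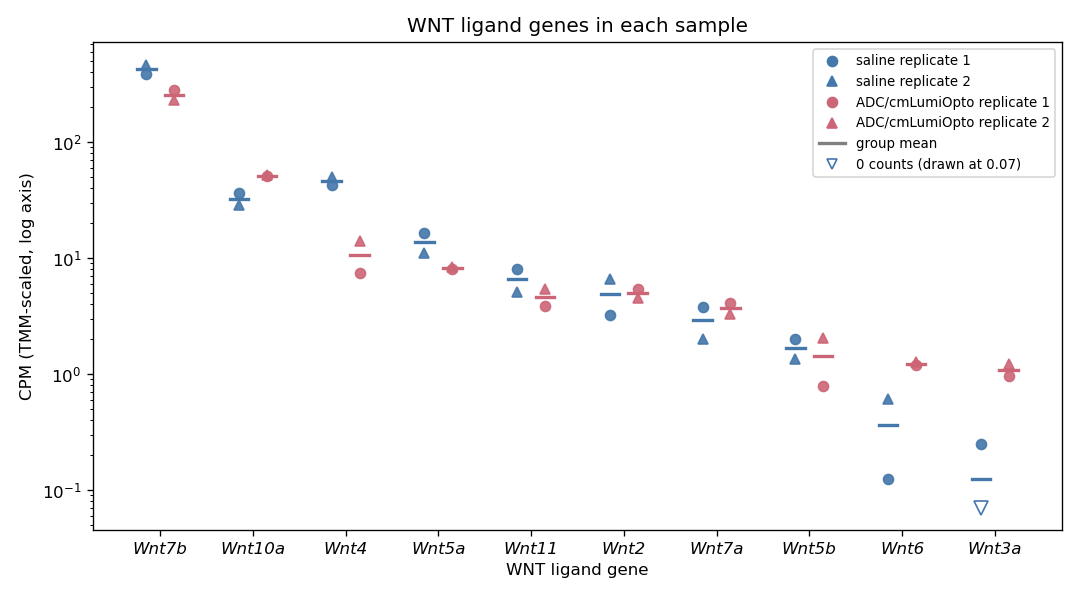
Level of each of the 10 WNT ligand genes in every sample, in CPM scaled by TMM on a log axis, with circles for replicate 1, triangles for replicate 2, bars for the group mean and an open triangle for a sample with 0 counts. Both treated points (red) lie below both saline points (blue) for Wnt7b, Wnt4 and Wnt5a and above them for Wnt10a, Wnt6 and Wnt3a, and the groups overlap for the other 4 genes.

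Treated and saline samples were compared gene by gene to ask how the combined therapy moved the RNA of the metastatic lung. Over the 15320 genes that passed the expression filter, 0 genes (0.0%) passed edgeR's quasi-likelihood (QL) test at a Benjamini-Hochberg adjusted p under 0.05, so none of the 10 ligands passed it. At an unadjusted p under 0.05, 1863 genes (12.2%) were lower and 1690 (11.0%) higher. Among the ligands, Wnt4, Wnt5a and Wnt7b were in the lower class and Wnt3a and Wnt10a in the higher class. Wnt3a and Wnt6 passed the expression filter only through the treated group. Their higher direction was thus fixed in advance in the tests that used this filter. The treated pair lay wholly below the saline pair for 3 of the 10 ligands, against 28.8% of all tested genes, and wholly above it for 3 of the 10, against 28.1%. These shares of the ligands are close to the background over all genes, and nothing is read from them, since the genes were chosen with this contrast known. The other methods called more genes at an adjusted p under 0.05. DESeq2 called 1353 genes (8.83% of the 15320), with Wnt4 and Wnt7b among them. It gave Wnt3a and Wnt6 no adjusted p, so it could not call them. The exact test of edgeR called 1170 (7.64%), with Wnt3a, Wnt4 and Wnt7b among them. Without the expression filter, edgeR's QL test called 2259 of 25563 genes, with Wnt3a, Wnt4, Wnt7b and Wnt10a among them. An exact permutation test of 2 samples against 2 cannot give a two-sided p below 0.333.

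Wnt4 (ENSMUSG00000036856, listed at chromosome 4, 137004800 to 137027037, plus strand) had the largest difference to the lower side. It had 682 and 738 counts in the saline samples, or 42.6 and 49.7 CPM, and 132 and 285 counts in the treated samples, or 7.48 and 13.9 CPM. Both treated samples were thus far below both saline samples, and treated replicate 1 was the lower of the pair. The group means were 46.2 ± 5.03 CPM (SD, n = 2) and 10.7 ± 4.54 CPM (SD, n = 2), which is 4.31-fold lower, with a fitted log2 fold change of -2.11 (standard error 0.31). Leaving out 1 sample at a time gave values from -2.63 to -1.73. The adjusted p from edgeR's QL test was 0.116. At an adjusted p under 0.05, Wnt4 was among the 1353 genes (8.83%) called by DESeq2 and the 1170 (7.64%) called by edgeR's exact test. The GC-rich start of this gene is the first of the windows printed above.

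Wnt7b (ENSMUSG00000022382, listed at chromosome 15, 85419638 to 85466674, minus strand) held more reads than all other ligand genes together in every sample. It had 6222 and 6912 counts in the saline samples, or 389 and 466 CPM, and 4992 and 4688 counts in the treated samples, or 283 and 229 CPM. The groups did not overlap, and the treated samples had fewer reads of it despite their deeper sequencing. Mean levels were 427 ± 54.4 CPM (SD, n = 2) and 256 ± 38.4 CPM (SD, n = 2), 1.67-fold lower, with a fitted log2 fold change of -0.74 (standard error 0.19, range -0.90 to -0.60 with each sample left out) and an edgeR QL adjusted p of 0.123. The gene overlaps AU022754, which had between 6 and 17 counts per sample, few beside those of Wnt7b. In the same treated samples the summed markers of alveolar, airway and leukocyte cells were higher. The fibroblast sum was lower, with 6 genes lower and 2 higher by fitted value. The smooth muscle and pericyte sum was also lower, but 3 of its genes were lower and 3 higher. The carcinoma epithelium sum had the narrowest spread, with 4 genes lower and 3 higher. The part of the cell make-up in the level of Wnt7b was not tested.

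Wnt10a (ENSMUSG00000026167, listed at chromosome 1, 74830675 to 74843338, plus strand) was the most abundant ligand gene with higher levels after treatment. It had 581 and 422 counts in the saline samples, or 36.3 and 28.4 CPM, and 894 and 1059 counts in the treated samples, or 50.7 and 51.6 CPM. The treated samples lay close to each other and above both saline samples. Mean levels were 32.4 ± 5.57 CPM (SD, n = 2) and 51.2 ± 0.689 CPM (SD, n = 2), 1.58-fold higher, with a fitted log2 fold change of 0.66 (standard error 0.18, range 0.50 to 0.83) and an edgeR QL adjusted p of 0.131. Its neighbor Wnt6 begins the same stretch of chromosome 1, and 6.19 kb separate the genes.

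Wnt6 (ENSMUSG00000033227, listed at chromosome 1, 74811051 to 74824481, plus strand), a ligand of ectoderm and kidney tubule formation, was near the floor in saline lungs. It had 2 and 9 counts in the saline samples, or 0.125 and 0.607 CPM, and 21 and 26 counts in the treated samples, or 1.19 and 1.27 CPM. Both treated samples were above both saline samples, and saline replicate 1 was under the floor of 3 counts. Only 1 saline sample reached the level of the expression filter, against both treated samples. The gene was thus tested only because its level was high enough in the treated group. The sum of the treated counts over that of the saline counts, adjusted for depth, was 3.57 with an exact 95% interval of 1.82 to 7.63 for counting error only. The fitted log2 fold change was 1.75 (standard error 0.78, edgeR QL adjusted p = 0.237). It was 3.23 without saline replicate 2 and 1.00 without saline replicate 1, so its size hung on which saline sample was kept.

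Wnt3a (ENSMUSG00000009900, listed at chromosome 11, 59138859 to 59181578, minus strand), the ligand most often used to activate β-catenin in culture, was the lowest of the 10 genes in the saline group. It had 4 and 0 counts in the saline samples, or 0.250 and 0 CPM, and 17 and 25 counts in the treated samples, or 0.963 and 1.22 CPM. Both treated samples were above both saline samples, and the gene passed the expression filter only through the treated group, so a higher level there had to follow for it to be tested at all. The ratio of summed counts, adjusted for depth, was 8.77 with an exact 95% interval of 3.18 to 33.7, again for counting error only. The fitted log2 fold change was 3.02 (standard error 1.01, edgeR QL adjusted p = 0.159), and 2.1 without saline replicate 2. Without saline replicate 1 the saline group had no read of the gene, and the treated mean was at least 5.40-fold higher than the floor of 3 counts in the remaining saline sample.

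Wnt5a (ENSMUSG00000021994, listed at chromosome 14, 28226707 to 28249405, plus strand), the main ligand of the Ror2 receptor in non-canonical signaling, was lower in the treated samples. It had 265 and 163 counts in the saline samples, or 16.6 and 11.0 CPM, and 142 and 172 counts in the treated samples, or 8.05 and 8.39 CPM. The groups did not overlap, although saline replicate 2 was nearer to the treated samples than to saline replicate 1. Mean levels were 13.8 ± 3.95 CPM (SD, n = 2) and 8.22 ± 0.240 CPM (SD, n = 2), 1.68-fold lower, with a fitted log2 fold change of -0.75 (standard error 0.30, range -1.01 to -0.43) and an edgeR QL adjusted p of 0.204. Fibroblasts are a known source of this ligand, and the fibroblast list was lower in the same samples, with 6 of its 8 genes lower. The part of fibroblast RNA in the level of Wnt5a was not tested.

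The groups overlapped for the other 4 ligands. Wnt11 (ENSMUSG00000015957), which acts in the convergent movements of the embryo, was at 8.0 and 5.12 CPM in the saline samples and at 3.85 and 5.41 CPM in the treated samples. Wnt2 (ENSMUSG00000010797), a ligand of the lung mesenchyme that helps to specify the lung, was at 3.25 and 6.61 CPM and at 5.44 and 4.49 CPM. Both treated samples of Wnt2 lay between the saline samples. Wnt7a (ENSMUSG00000030093), which patterns the limb and the female reproductive tract, was at 3.81 and 2.02 CPM in the saline samples and at 4.08 and 3.32 CPM in the treated samples. Wnt5b (ENSMUSG00000030170), a non-canonical relative of Wnt5a, was at 2.00 and 1.35 CPM and at 0.793 and 2.05 CPM, and treated replicate 2 was the highest of the 4 samples for it. The fitted log2 fold changes were -0.50 (standard error 0.39) for Wnt11, 0.01 (0.44) for Wnt2, 0.34 (0.45) for Wnt7a and -0.23 (0.62) for Wnt5b, and for Wnt2, Wnt7a and Wnt5b the sign turned when 1 sample was left out. Wnt5b shares 2963 bases with Fbxl14 on the opposite strand, which had between 887 and 1227 counts per sample. The protocol does not say whether the libraries kept the strand, so the 14 to 42 counts of Wnt5b may include reads of Fbxl14.

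**Figure D2:**
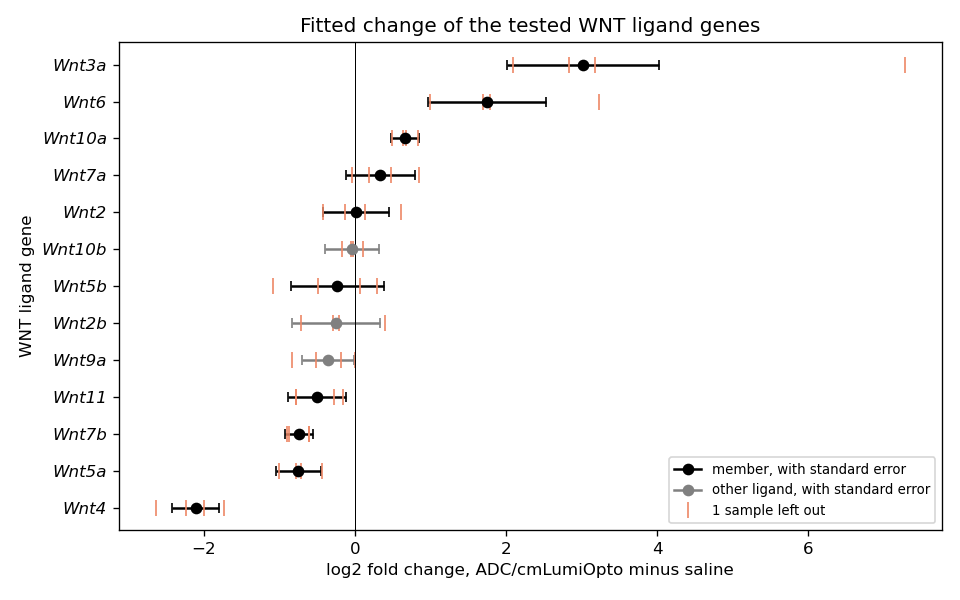
Fitted log2 fold change (ADC/cmLumiOpto minus saline) of the 13 tested WNT ligand genes, with points and bars for the estimate and its standard error and red ticks for the fits that leave out 1 sample each. The ticks of Wnt4, Wnt7b, Wnt5a, Wnt10a, Wnt6, Wnt3a and Wnt11 stay on one side of 0, and the far tick of Wnt3a at 7.28 comes from a saline group with no read and is no bound.

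Over the 10 ligands, 5 had a lower and 5 a higher fitted value, with a median log2 fold change of -0.11, beside a median of 0.028 over all tested genes, of which 48.0% were lower. The higher ones include Wnt3a and Wnt6, which passed the expression filter only through the treated group, so their direction was fixed in advance. The 8 ligands with at least 10 counts in every sample had 5 lower fitted values and a median of -0.33. Longer genes tended to be lower across the transcriptome, and with that trend removed the median of the 10 ligands was -0.27. The single values were then -2.10 for Wnt4, -0.68 for Wnt7b, -0.55 for Wnt5a, 0.50 for Wnt10a, 1.55 for Wnt6 and 2.91 for Wnt3a on the log2 scale, all with the sign they had before. Wnt2 went from 0.01 to -0.18.

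The make-up of the ligand RNA was described within each sample, where the depth cancels. Reads of the 19 ligand genes numbered 8348 and 8723 in the saline group and 6774 and 6832 in the treated group, and the 10 genes examined held between 95.2% and 97.1% of these. Wnt7b took 74.5% (95% Wilson interval 73.6% to 75.5%) and 79.2% (78.4% to 80.1%) of the ligand counts in the saline samples. In the treated samples it took 73.7% (72.6% to 74.7%) and 68.6% (67.5% to 69.7%). Saline replicate 1 and treated replicate 1 thus lay within the counting error of each other. Per kb, where the length of the genes no longer counts, the share of Wnt7b was 67.4% and 72.9% in the saline samples, against 62.5% and 57.0% in the treated samples, and the groups did not overlap.

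Without Wnt7b, the sum of the ligands per kb was 38.4 and 35.4 CPM per kb in the saline samples, against 34.6 and 35.2 CPM per kb in the treated samples. What differed was which genes made it up. Wnt10a made up 38.3% and 32.5% of this sum in the saline samples, against 59.3% and 59.4% in the treated samples. Wnt4 made up 26.5% and 33.5% in the saline samples, against 5.15% and 9.41% in the treated samples. Both shares were apart between the groups, in opposite directions, as the levels of both genes already were. The sum differed little between the groups, so these shares and the ratio of both genes restate their levels. The ratio of Wnt4 to Wnt10a within a sample, per kb, was 0.691 and 1.03 in the saline samples, against 0.0869 and 0.158 in the treated samples, so in the saline lungs the level of Wnt4 was near that of Wnt10a and in the treated lungs it was several-fold below. The ratio of Wnt7b to Wnt10a was 5.40 and 8.25 in the saline samples, against 2.81 and 2.23 in the treated samples.

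**Figure D3:**
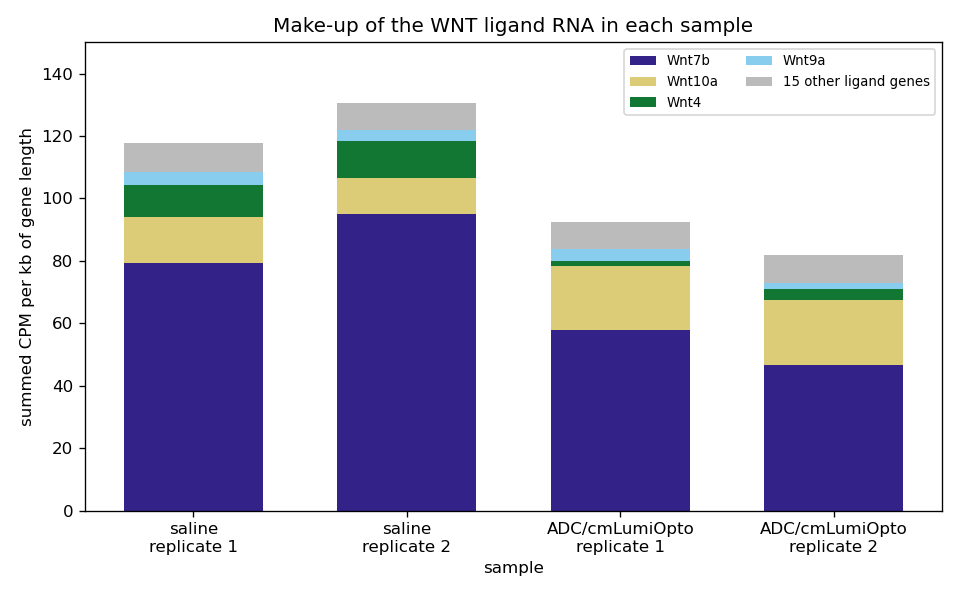
Summed level of the 19 WNT ligand genes in each sample, in CPM per kb of gene length, stacked by gene. The whole bar is 118 and 131 in the saline samples, against 92.4 and 81.9 in the treated samples, with a shorter Wnt7b part, a thinner Wnt4 part and a thicker Wnt10a part in the treated samples.

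The other 9 ligand genes held the small remainder of the ligand reads, although Wnt9a ranked 4 in the saline group and 3 in the treated group per kb. Wnt9a, which lies 16.2 kb from Wnt3a, had 228 and 167 saline counts and 226 and 147 treated counts, with a fitted log2 fold change of -0.36 (standard error 0.35). Wnt10b, a relative of Wnt10a, had 70, 53, 69 and 79 counts, and Wnt2b had 14, 28, 21 and 23 in the same order. The groups overlapped for all 3 of these tested genes. Wnt1, Wnt3, Wnt8b and Wnt9b had at most 9 counts in any sample and were not tested, and Wnt8a and Wnt16 had no count. With 0 counts, a sample allows up to 3 counts, or 0.146 to 0.202 CPM over the 4 samples.

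The steps that make a ligand fit for release were compared next. Porcn, the acyltransferase, was at 8.63 and 7.08 CPM in the saline samples and at 6.91 and 10.8 CPM in the treated samples, which gave a fitted log2 value of 0.17 (edgeR QL adjusted p = 0.786). Wls, the carrier of the lipid-bound ligand, was at 342 and 361 CPM and at 382 and 302 CPM, which gave -0.04 (edgeR QL adjusted p = 0.915). The groups overlapped for both genes.

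Apart from the 19 ligand genes, 60 genes of the pathway were listed by role, with earlier results of these data known, and 47 of them were tested. None passed the adjusted threshold in edgeR's QL test. At an unadjusted p under 0.05, 20 of the 47 were lower, against 12.2% of all tested genes, and 0 were higher, against 11.0%. Fitted values were below 0 for 37 and above 0 for 10, with a median of -0.45, or -0.30 with the trend on gene length removed. DESeq2 called 14 of the 47 and edgeR's exact test 11, against 8.83% and 7.64% of all tested genes. Of all 13 tested ligand genes, 8 had lower and 5 higher fitted values, with a median of -0.23. The higher ones include Wnt3a and Wnt6, which passed the filter only through the treated group. The difference between the ligands and the other pathway genes was not tested.

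Among receptors and co-receptors, 15 of 16 genes were tested, 12 were lower and 3 higher, and the median log2 fold change was -0.49. Ror2, which pairs with Wnt5a, was at 11.3 and 9.30 CPM in the saline samples and at 3.85 CPM in both treated samples, with a log2 fold change of -1.42. Its relative Ror1 was at 13.4 and 15.5 CPM and at 6.63 and 7.27 CPM, a log2 fold change of -1.06. Wnt5a and both of these receptors were therefore lower in the same samples, without overlap between the groups. The same held for 28.8% of all tested genes, and both receptors are named for their small p in this contrast. Ryk had a log2 fold change of -0.34. Ptk7, a pseudokinase of the polarity branch, had a log2 fold change of -0.65. In edgeR's QL test the adjusted p was 0.116 to 0.123 for Ror2, Ror1 and Ptk7 and 0.298 for Ryk.

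The R-spondins and their receptors raise the number of Frizzled receptors at the cell surface, which the ubiquitin ligases Znrf3 and Rnf43 remove. Of 9 listed genes 7 were tested, 5 lower and 2 higher, with a median of -0.45. Lgr6, an R-spondin receptor and stem cell marker, was at 192 and 325 CPM in the saline samples and at 138 and 89.2 CPM in the treated samples (log2 fold change -1.18). Its groups did not overlap, but its saline samples differed by more than saline replicate 1 did from treated replicate 1. Lgr5 and Znrf3 had log2 fold changes of -1.56 and -0.69.

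Of 17 secreted or surface inhibitors, 8 were tested, 7 lower and 1 higher, with a median of -0.85. Sfrp1, which binds WNT ligands outside the cell, was at 55.5 and 69.2 CPM in the saline samples and at 34.6 and 24.7 CPM in the treated samples (log2 fold change -1.07). Apcdd1, a membrane protein that binds ligand and receptor, had a log2 fold change of -1.04, and Dkk3, a relative of the Lrp6 antagonists, one of -0.67. Genes that restrain the pathway were thus on the same lower side as genes that carry it.

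All 12 genes of the cytoplasmic and nuclear core were tested, 11 lower and 1 higher, with a median of -0.36. The genes with the smallest p were Gsk3b, a kinase that marks β-catenin for destruction (-0.85), Tcf7l2, a DNA-binding partner of β-catenin (-0.73), and Ctnnb1, which encodes β-catenin itself (-0.65). Feedback targets, which rise with β-catenin activity in many tissues, were tested for 3 of 4 genes. Axin2 was at 12.4 and 12.0 CPM in the saline samples and at 4.70 and 9.02 CPM in the treated samples (log2 fold change -0.83, edgeR QL adjusted p = 0.235). Nkd1 and Nkd2 had log2 fold changes of 0.63 and 0.66. The 3 feedback genes did not share a direction, and treated replicate 2 alone carried the higher level of Nkd1, at 44.5 CPM against 18.7 to 22.4 CPM in the other 3 samples.

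**Figure D4:**
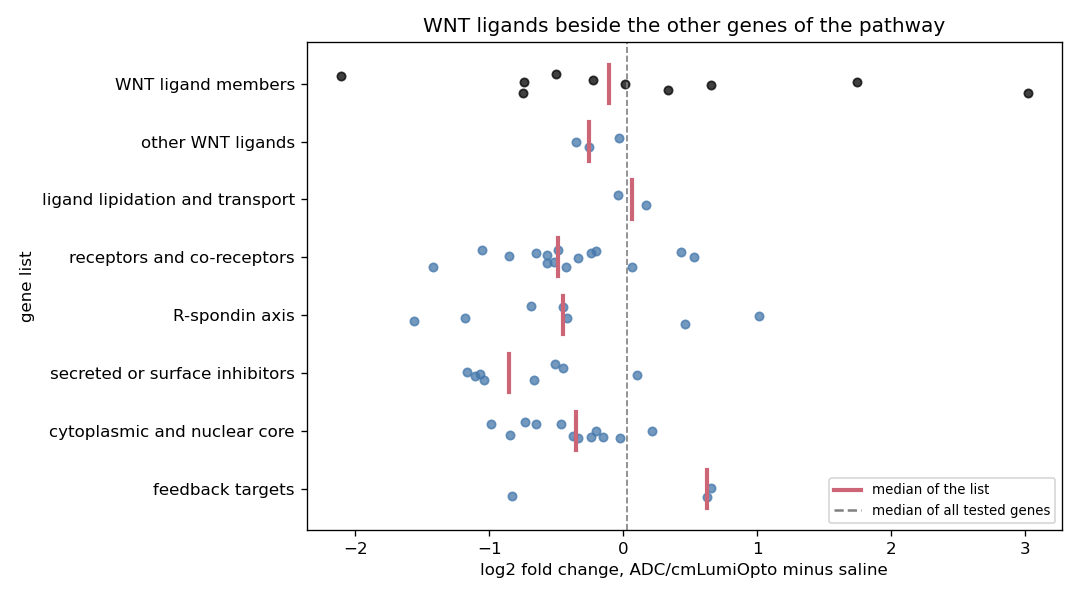
Fitted log2 fold change (ADC/cmLumiOpto minus saline) of each tested gene, by list, with red bars for the median of a list and a dashed line for the median of all tested genes. The ligands spread from -2.11 to 3.02 around a median of -0.11, while the medians of the receptors, the R-spondin axis, the inhibitors and the core lie between -0.85 and -0.36. Wnt3a, at the high end of the ligands, and Wnt6 passed the expression filter only through the treated group.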

How the data were processed

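Poly(A) RNA of 2 saline and 2 ADC/cmLumiOpto samples was sequenced on an Illumina platform. The authors deposited whole-number read counts for each gene, not normalized. The methods state alignment with HISAT2 to GRCm38, while the submitters' processing notes name mm39, HISAT, HISAT2 and TopHat2; the counting program is not given in the sources used here. Positions are as the table lists them and differ from GRCm38, so promoter windows (RefSeq, GRCm38.p6) carry their own coordinates.

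The table's 56748 genes were filtered by filterByExpr (minimum count 10, minimum total 15) to 15320, scaled by TMM (factors 0.973 to 1.04) and tested in R 4.3.3 with edgeR 4.0.16 (glmQLFit, glmQLFTest, prior count 0.125, Benjamini-Hochberg threshold 0.05). CPM are counts relative to the TMM-scaled library size, and CPM per kb are divided by the listed gene length. The standard error is the fold change over the square root of F. Alternatives were DESeq2 1.42.0, the exact test, other scalings and filters, a replicate block, a gene length correction (lowess span 0.3) and each sample left out. Same-numbered samples deviated together only weakly (r = 0.071 over genes), so the numbers were not taken as pairs. The ligand genes, the pathway lists and the marker lists were chosen with earlier results of these data known. Named genes were all ligand genes, Porcn, Wls, and the up to 3 tested genes with the smallest p in each other pathway list. Ryk and Wif1 were added outside this rule.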

Additional observations from a re-analysis of the deposited data

How the results depend on the processing

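Depth limits Wnt3a and Wnt6, which had at most 9 counts in any saline sample. The number of genes with an adjusted p under 0.05, 0 in edgeR's quasi-likelihood test, was 1353 with DESeq2, 1170 with the exact test, 2259 without the filter, 607 with the replicate block, and 0 to 218 with each sample left out. The other pathway genes are counted here with the 9 ligand genes outside the 10. DESeq2 called 14 of 50 tested and the exact test 11 of 50, against 8.83% and 7.64% of all tested genes. The replicate block called 3 of 50. Without the filter 16 of 65 were called, beside 2259 of 25563 genes, and these include Wif1, which was higher. Leaving out saline replicate 1 gave the 218 genes, with Wnt4 among them; the lone sample of a group is then assumed to vary like the others. The replicate block, on sample numbers that do not mark pairs, called 607 of 15320 genes. Of the 10 ligands it called Wnt4 (edgeR adjusted p = 0.0088). The median log2 fold change of the ligands, -0.11, was -0.056 with the library size alone, -0.026 with upper-quartile scaling, -0.33 for the 8 with at least 10 counts in every sample, -0.27 with the gene length trend removed, and -0.26 to 0.026 with each sample left out. Signs turned for 6 of the named genes outside the 10 ligands. Wnt10b was at 0.010 with library size, 0.049 with upper quartile, 0.0031 with at least 10 counts and 0.11 without saline replicate 1. Wls was at 0.0029 with library size, 0.048 with upper quartile, 0.19 with the length trend removed, 0.0035 without saline replicate 2 and 0.12 without treated replicate 2. Wnt2b was at 0.40 without saline replicate 2. Without treated replicate 2, Wnt9a was at 0.00097, Porcn at -0.19 and Nkd1 at -0.12. With each sample left out, the other ends of the ranges were -0.17 for Wnt10b, -0.22 for Wls, -0.72 for Wnt2b, -0.83 for Wnt9a, 0.46 for Porcn and 1.11 for Nkd1. The causes were not tested.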
